A study of Bos taurus with 8 samples.

Results

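The WC1 genes of cattle were followed in peripheral blood mononuclear cells (PBMC) kept without lipopolysaccharide (LPS, a component of the outer membrane of Gram-negative bacteria) or with it for 2 h, 4 h or 8 h. Rows of the scRNA-seq tables whose gene name begins with WC1 were taken, and each Ensembl gene was kept apart. There were 3 such rows among 21861: WC1 (ENSBTAG00000049861), WC1.3 (ENSBTAG00000050603) and WC1-12 (ENSBTAG00000052355). Blood of 4 female Holstein cattle, lactating and 2 years old, was drawn from the tail vein, pooled and divided before treatment, and LPS was used at 2 µg/ml at 37 °C. PBMC were isolated after the treatment, and each treatment gave 1 scRNA-seq library and 1 scATAC-seq library. No incubation time was stated for the blood without LPS, so LPS and time in incubation cannot be told apart in any ratio to it.

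WC1 proteins are transmembrane receptors with repeated scavenger receptor cysteine-rich (SRCR) domains, related to CD163, and are found on many γδ T cells of ruminants. They act as co-receptors of the γδ T cell receptor: their cytoplasmic tails are phosphorylated by Src family kinases, and some members bind bacteria directly. The family is a cluster of closely related genes, γδ T cells differ in which members they express, and WC1-positive γδ T cells are known as a large T cell population in the blood of calves and cattle.

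In the RefSeq gene list of assembly ARS-UCD2.0, used here only for names and order, WC1-12, WC1-10, WC1.3, WC1, WC1-8 and CD163L1 follow each other in that order. WC1-10 and WC1-8 were not analysed here. CD163L1 (ENSBTAG00000054245), for which RefSeq lists several WC1 names as synonyms, is not chosen by the name rule. It is given beside the members as a relative. Because the genes are similar in sequence, reads that fit several of them may have been dropped or split in counting, and the level of each row is uncertain for that reason. Each row's values are followed between cells and libraries, and no row is ranked against another by level.

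Of 28484 cells kept, 7821 came from the library without LPS, 9865 from 2 h, 7387 from 4 h and 3411 from 8 h. T cells were taken as the cells with at least 1 unique molecular identifier (UMI) of CD3E, the ε chain of the CD3 complex. They numbered 3998, 5439, 4194 and 1895 in the same order, with median depths of 4172, 4188, 4851 and 5106 UMIs per cell. Levels are given as CPM, the UMIs of a gene summed over a set of cells and scaled to 1000000 UMIs of those cells. Intervals are 95% exact intervals and cover counting error only. Those of levels and of ratios take each UMI as separate and are too narrow where a cell holds several. With 1 library per treatment no difference has a replicate check and no test was made, so fold changes and intervals describe these libraries. Between libraries 79 barcodes were shared, and 3 cells with a WC1-family UMI, meaning a UMI of any of the 3 rows, carried one of them.

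The WC1 rows were read almost entirely in T cells. Of the 400 cells with a WC1 UMI, 386 (96.5%) were CD3E-positive. The same held for 482 of 499 cells (96.6%) with WC1.3 and for 192 of 210 (91.4%) with WC1-12. In all, 996 of 1045 cells (95.3%) with any of the 3 rows were CD3E-positive, and 32 had no UMI of CD3D, CD3E or CD3G. The rows were sparse, with 666 UMIs of WC1, 658 of WC1.3 and 224 of WC1-12 over all cells.

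B cells gave the background. In cells with at least 2 UMIs of MS4A1, CD79A and CD79B and no CD3 UMI, the 3 rows together had 0 UMIs without LPS, 1 after 2 h, 2 after 4 h and 2 after 8 h. The first of these is 0 of 1789 cells, which allows a share of cells with a UMI of up to 0.206%. The B cells had a median of 3829 UMIs without LPS and 5913.5 after 8 h, so their depth was like that of the T cells. Monocyte-gated cells (CD14, CSF1R and VCAN) had 1, 1, 0 and 0 UMIs of the 3 rows, among 742, 330, 127 and 86 cells.

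Within T cells, WC1 was read in few cells and at a level that differed between the libraries. WC1 had 253 UMIs in 136 cells without LPS, 197 UMIs in 127 cells after 2 h, 102 in 68 cells after 4 h and 99 in 55 cells after 8 h. Its level was 13.6 CPM (11.97 to 15.4) without LPS, 7.72 CPM (6.68 to 8.87) after 2 h, 4.59 CPM (3.74 to 5.57) after 4 h and 10.0 CPM (8.12 to 12.2) after 8 h. The interval after 4 h lay below those of the other 3 libraries, and that after 2 h below the one without LPS, while the intervals after 8 h and without LPS overlapped. The share of T cells with a WC1 UMI followed the same order, at 3.40%, 2.34%, 1.62% and 2.90%.

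WC1.3 had 204, 184, 146 and 103 UMIs in T cells of the 4 libraries, without LPS and after 2 h, 4 h and 8 h. Its level was 11.0 CPM (9.51 to 12.6), 7.21 CPM (6.21 to 8.33), 6.57 CPM (5.55 to 7.73) and 10.4 CPM (8.49 to 12.6). The levels after 2 h and 4 h overlapped in their intervals, and both lay below the other 2 libraries. A WC1.3 UMI was read in 141, 152, 115 and 74 cells, or 3.53%, 2.79%, 2.74% and 3.91% of the T cells. With each cell thinned to 1000 UMIs these shares were 1.203%, 0.812%, 0.674% and 1.005%, so the share after 8 h was above that without LPS only before thinning.

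WC1-12 was the sparsest row, with 80, 47, 52 and 27 UMIs in 76, 44, 48 and 24 T cells. Its level was 4.30 CPM (3.41 to 5.35) without LPS, 1.84 CPM (1.35 to 2.45) after 2 h, 2.34 CPM (1.75 to 3.07) after 4 h and 2.73 CPM (1.80 to 3.97) after 8 h. Only the intervals after 2 h and 4 h lay wholly below that of the library without LPS, and the 3 LPS libraries overlapped each other. Most positive cells held 1 UMI of it, between 87.5% and 95.5% per library.

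A single T cell held up to 10 UMIs of WC1 without LPS and up to 8, 6 and 8 after 2 h, 4 h and 8 h. The mean number of UMIs per positive cell was 1.86, 1.55, 1.50 and 1.80 for WC1 in that order. For WC1.3 it was 1.45, 1.21, 1.27 and 1.39. Both means were lowest after 2 h or 4 h, so the libraries with lower shares of positive cells also had fewer UMIs per positive cell. The mean for WC1-12 stayed between 1.05 and 1.13.

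**Figure D1:**
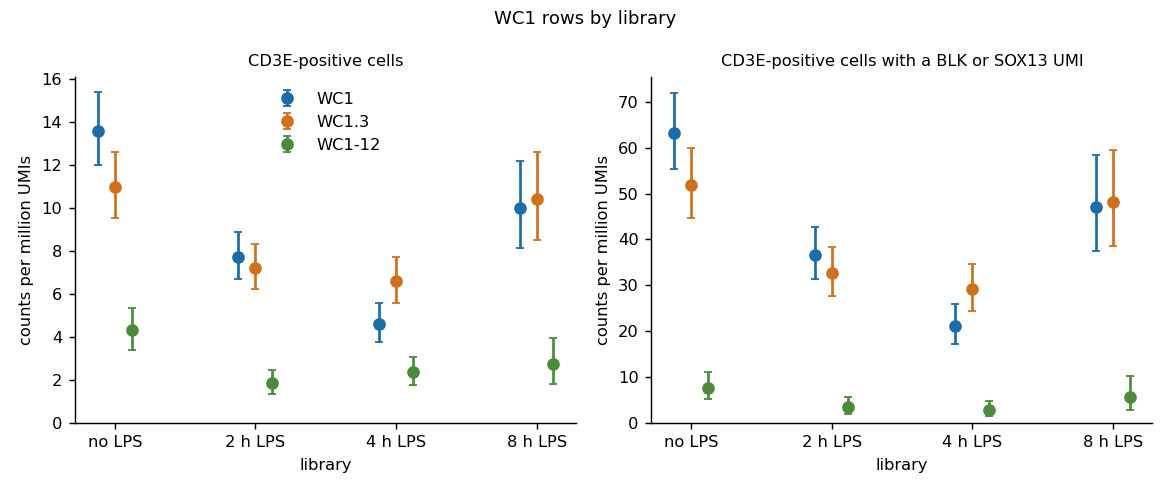
Level of each WC1 row (CPM of UMIs, vertical axis) in the 4 libraries, in CD3E-positive cells on the left and in those with a BLK or SOX13 UMI on the right; points are library values and bars 95% counting intervals. WC1 is lowest after 4 h in both panels (4.59 and 21.1 CPM) and is 10.0 and 47.1 CPM after 8 h.

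Against the library without LPS, WC1 was 0.568 times as high after 2 h (0.469 to 0.687; log2 -0.74), 0.338 times after 4 h (0.266 to 0.427; log2 -1.38) and 0.735 times after 8 h (0.577 to 0.931; log2 -0.41). Log2 values are of (CPM + 1) and ratios are of CPM. Each of the 3 intervals lay below 1. Between 54.4% and 69.1% of WC1-positive T cells per library held 1 UMI of it and the others more. The intervals are thus too narrow, and that after 8 h came near 1. From 4 h to 8 h WC1 was 2.18 times higher (1.63 to 2.90; log2 0.98).

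WC1.3 was 0.658 times as high after 2 h (log2 -0.54), 0.600 times after 4 h (0.482 to 0.745; log2 -0.66) and 0.949 times after 8 h (0.741 to 1.21; log2 -0.07). The interval after 8 h included 1, and the level after 8 h was 1.58 times that after 4 h (1.22 to 2.05). WC1-12 was 0.428 times as high after 2 h (0.292 to 0.622; log2 -0.90), 0.545 times after 4 h (log2 -0.67) and 0.634 times after 8 h (0.394 to 0.992; log2 -0.51). CD163L1 had 14.2, 7.52, 6.26 and 10.6 CPM, with log2 ratios of -0.84, -1.07 and -0.39.

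On the log2 of (CPM + 1) scale, past 2-fold lower were 0 of the 3 rows after 2 h, 1 of 3 after 4 h (WC1) and 0 of 3 after 8 h. WC1-12 after 2 h was past 2-fold lower as a ratio of CPM, and the added 1 CPM kept it inside 2-fold. Over all genes with enough UMIs to compare, 0.692% were past 2-fold lower after 2 h, 1.67% after 4 h and 0.912% after 8 h. Past 2-fold higher were 0 of 3 at each time, against 0.71%, 1.07% and 0.419% of all genes. The median log2 ratio over all genes was -0.03, -0.01 and 0.04 at the 3 times, and CD3E itself was at -0.15, -0.17 and -0.02.

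The balance between WC1 and WC1.3 also differed. Of the UMIs of the 2 rows in T cells, WC1 held 55.4% without LPS (50.7 to 60.0), 51.7% after 2 h (46.6 to 56.8), 41.1% after 4 h (34.9 to 47.5) and 49.0% after 8 h (41.9 to 56.1). The intervals without LPS and after 4 h did not overlap, and those after 2 h and 8 h overlapped all the others. This part was taken within each library, so it does not depend on the scaling between libraries. Counted by positive cells in place of UMIs, WC1 held 49.1% (43.1 to 55.1), 45.5% (39.6 to 51.6), 37.2% (30.1 to 44.6) and 42.6% (34.0 to 51.6). By cells the intervals without LPS and after 4 h did overlap.

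A lower level in summed T cells can come from fewer WC1-expressing cells or from less RNA in each, and in sums over all T cells these cannot be told apart. Rows for the γ and δ chains of the T cell receptor were not used here, and a gate on T cells with at least 1 UMI of BLK or SOX13 stood as a proxy for γδ T cells. BLK (B lymphoid kinase) is a Src family kinase that B cells express too, and SOX13 is a transcription factor of γδ T cells. T cells with B cell UMIs were not left out of the gate, and their part in it was not tested. The gate was chosen after the data were seen, and BLK is among the genes most like the WC1 rows, so the high level of the rows in it is a description.

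The gate held 780, 936, 792 and 330 T cells without LPS and after 2 h, 4 h and 8 h, which is 19.5%, 17.2%, 18.9% and 17.4% of the T cells. It took in 75.6%, 73.9%, 75.3% and 74.6% of the WC1-family-positive T cells, those with at least 1 such UMI. A cell enters the gate on 1 UMI, so the gate's size also depends on depth, and the part of depth in these shares was not tested. In the gate WC1 was at 63.1, 36.6, 21.1 and 47.1 CPM, and WC1.3 at 51.9, 32.7, 29.2 and 48.2 CPM. Outside it WC1 was at 1.54, 1.34, 0.450 and 1.85 CPM, and WC1.3 at 1.00, 1.58, 0.901 and 2.09 CPM.

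Within the gate WC1 had log2 ratios of -0.77, -1.53 and -0.42 after 2 h, 4 h and 8 h, and WC1.3 of -0.65, -0.81 and -0.10. WC1-12, at 7.69, 3.47, 2.70 and 5.61 CPM from 28, 16, 12 and 10 UMIs, had log2 ratios of -0.96, -1.23 and -0.40. Its value after 4 h was thus past 2-fold lower in the gate, from 12 UMIs, and at -0.67 over all T cells. The share of gated cells with any of the 3 rows was 31.4%, 24.3%, 21.2% and 32.1%, and thinned to 1000 UMIs per cell it was 11.7%, 7.5%, 5.55% and 9.12%. The gated share after 8 h was above that without LPS before thinning and below it after. Thinned to 1000 UMIs per cell, the share of all T cells with any row was 2.89%, 1.71%, 1.40% and 2.13%, so the order without thinning (8.10%, 5.64%, 5.32% and 7.49%) was kept at equal depth.

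The share of monocyte-gated cells among the cells kept also differed between the libraries. It was 9.49% without LPS and 3.35%, 1.72% and 2.52% after 2 h, 4 h and 8 h. The median depth of these cells was 9485.5, 12049, 9739 and 2802.5 UMIs in that order. That of the T cells was 4172, 4188, 4851 and 5106 UMIs. Cells above an upper limit on genes had been left out, and the part of that limit in the monocyte shares was not tested. The 8 monocyte markers summed to 601, 286, 153 and 400 CPM in T cells without a WC1-family UMI and to 395, 243, 48.9 and 168 CPM in those with one. Their part in the WC1 differences was not tested. Among T cells with no UMI of MS4A1, CD79A, CD79B or CD14, WC1 had log2 ratios of -0.64, -1.47 and -0.57 and WC1.3 of -0.51, -0.65 and -0.09.

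By co-receptor, WC1 and WC1.3 belonged to T cells without CD4 or CD8 transcripts. In T cells with no UMI of CD4, CD8A or CD8B, WC1 was at 25.6, 13.8, 8.40 and 19.8 CPM in library order, and WC1.3 at 20.7, 12.7, 11.3 and 20.0 CPM. In CD4-positive T cells WC1 was at 0.345, 1.204, 0.463 and 1.85 CPM, and WC1.3 at 1.90, 1.47, 0.926 and 1.23 CPM. In T cells with CD8A or CD8B, WC1 was at 4.95, 0.687, 0.509 and 0 CPM, where the first value came from 17 UMIs in 5 cells. Of the T cells with WC1, 93.8% had neither co-receptor and 86.0% lay in the BLK or SOX13 gate. For WC1.3 these shares were 91.1% and 86.9%. Of all T cells, 53.3% to 56.6% per library had neither co-receptor.

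WC1-12 was spread differently. It was at 4.70, 1.57, 3.03 and 3.61 CPM in T cells with neither co-receptor and at 4.83, 2.54, 2.16 and 2.46 CPM in CD4-positive T cells, with overlapping intervals in each library. Of the T cells with WC1-12, 53.6% had neither co-receptor, 35.4% had CD4, 10.9% had CD8A or CD8B and 29.2% lay in the BLK or SOX13 gate. Of all T cells, 53.3% to 56.6% per library had neither, 27.0% to 29.1% had CD4 and 15.5% to 16.9% had CD8A or CD8B. The share with neither was thus like that of all T cells. The share in the BLK or SOX13 gate (22.8% to 36.1%) was above that of all T cells, 17.2% to 19.5% per library. In CD4-positive T cells a WC1-12 UMI was read in 2.41% of cells without LPS, 1.29% after 2 h, 1.24% after 4 h and 1.32% after 8 h. In B-gated cells the shares were 0, 0, 0.0530% and 0.330%, so the shares in CD4-positive cells lay above those in B cells, with overlapping intervals after 8 h.

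**Figure D2:**
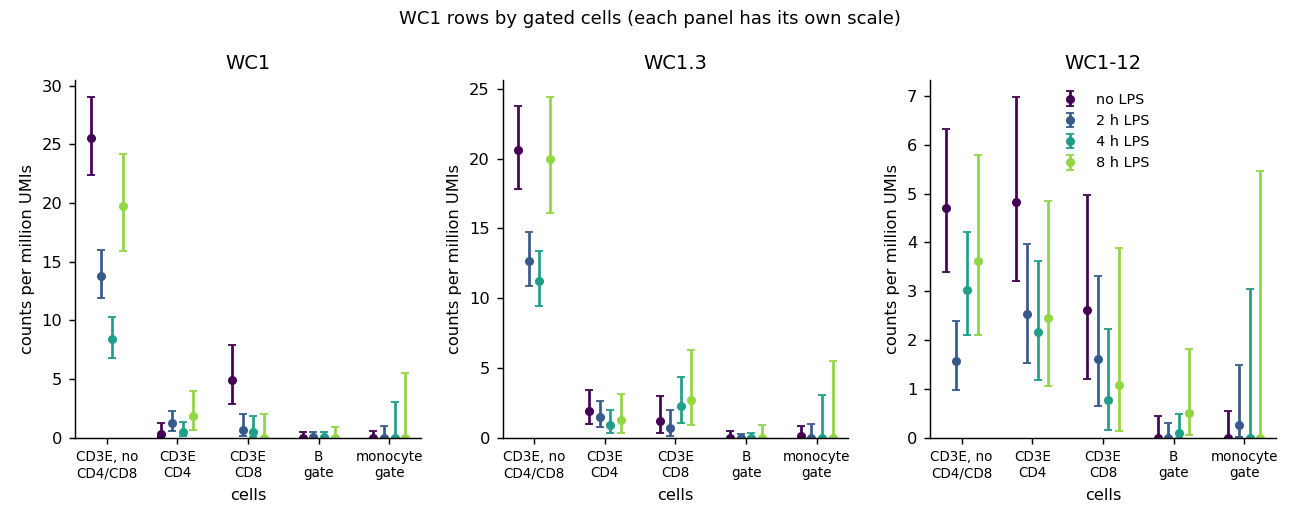
Level of each WC1 row (CPM of UMIs, vertical axis, own scale per panel) by gated cell set (horizontal axis) and library (colours), with 95% counting intervals as bars. WC1 and WC1.3 are high in T cells without CD4 or CD8 and near 0 in B and monocyte gates, while WC1-12 is at like levels in T cells with CD4 (4.83 CPM without LPS) and with neither (4.70 CPM).

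The rows were seldom read in the same cell. Of the 996 T cells with any row, 934 (93.8%) had 1 of the 3, 60 (6.02%) had 2 and 2 (0.201%) had all 3. WC1 and WC1.3 were read together in 19 cells without LPS, 11 after 2 h, 4 after 4 h and 10 after 8 h. Among T cells with WC1.3, 13.5% had WC1 without LPS, 7.24% after 2 h, 3.48% after 4 h and 13.5% after 8 h. Among those without WC1.3 the shares were 3.03%, 2.19%, 1.57% and 2.47%, and the intervals overlapped after 4 h alone. Over the 4 libraries 44 cells of 15526 held both. If the rows were unrelated over the pooled cells, 11.98 would be read together, a ratio of 3.67. The expected number was taken from the pooled cells and not library by library, as for the other pooled ratios.

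The ratio depended on which cells were compared. In the BLK or SOX13 gate 41 cells had both rows, and 9.79% of cells with WC1.3 had WC1 against 12.03% of cells without it, a ratio of observed to expected of 0.836. By library the shares there were 13.2% against 15.7% without LPS, 8.80% against 11.6% after 2 h, 3.88% against 8.42% after 4 h and 14.5% against 13.8% after 8 h. Their intervals overlapped in each library. Over all T cells, then, cells with WC1.3 more often had WC1, and inside the gate no such difference was detectable at this depth. Thinned to 1000 UMIs per cell, the ratio was 4.40 over T cells and 0.989 in the gate.

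**Figure D3:**
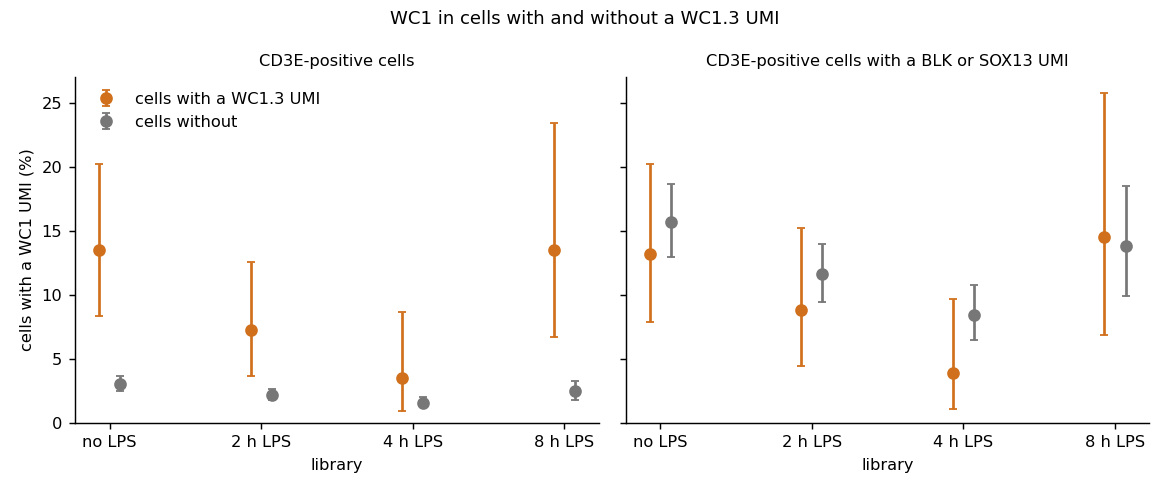
Share of cells with a WC1 UMI (%, vertical axis) among cells with and without a WC1.3 UMI, per library, in CD3E-positive cells (left) and in those with a BLK or SOX13 UMI (right); bars are 95% exact binomial intervals. On the left cells with WC1.3 are higher (13.5% against 3.03% without LPS), and on the right the intervals overlap (13.2% against 15.7%).

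WC1-12 was read with WC1 in 10 T cells, 2.09 times the expected number, and with WC1.3 in 12, 2.01 times. In the gate these ratios were 1.53 and 1.45, from the same numbers of cells. CD163L1 was read with WC1 in 83 T cells (5.79 times) and with WC1.3 in 105 (5.86 times). In the gate 14.7% of CD163L1-positive cells had WC1 against 11.1% of the others, and 19.4% had WC1.3 against 13.8%. The ratios in the gate were 1.26 and 1.31 over the 4 libraries pooled, 0.581 and 1.05 after 4 h, and 1.84 and 1.52 after 8 h. The pooled intervals overlapped for WC1 (11.7% to 18.1% against 9.83% to 12.4%) and not for WC1.3 (16.0% to 23.2% against 12.4% to 15.3%). Within single libraries the intervals overlapped each time for WC1.3. For WC1 they were apart after 8 h alone (16.0% to 37.6% against 7.28% to 15.2%). The difference between pairs was not tested. With sparse counts the correlations over single T cells were weak, at r of 0.10, 0.06, 0.05 and 0.11 between WC1 and WC1.3 on ln(counts per 10000 + 1), and -0.02 to 0.03 between WC1-12 and either.

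The T cells with a WC1-family UMI were then set beside those without one in each library. The libraries had 324, 307, 223 and 142 such cells, with median depths of 3918, 4051, 4700 and 5327.5 UMIs, and the cells without had 4199.5, 4199, 4859 and 5072. Of 6463 genes compared, 57 (0.882%) were past 2-fold higher in all 4 libraries and 29 (0.449%) past 2-fold lower. The 4 CD3 complex genes CD3D, CD3E, CD3G and CD247 were higher in all 4 libraries, none past 2-fold, with a median over the list of mean log2 ratios of 0.38. Across all genes, 16.9% were higher in all 4 libraries and the median was -0.04.

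BLK, the Src kinase of the gate, was at 442 CPM in WC1-family-positive cells and 80.2 CPM in the other T cells without LPS. After 2 h it was at 367 against 67.7, after 4 h 437 against 83.7, and after 8 h 363 against 59.8 CPM, and the mean log2 ratio was 2.46. LCK, the Src kinase of CD4 and CD8 co-receptor signalling, went the other way, at 81.6 against 190 CPM without LPS, 49.0 against 147 after 2 h, 47.4 against 156 after 4 h and 62.2 against 150 after 8 h (mean log2 -1.43). These were the 2 of 15 compared genes of the Src kinase and proximal signalling list past 2-fold in all 4 libraries, 1 in each direction. FYN, another Src kinase of T cells, was lower by less (mean log2 -0.38), and ZAP70, which binds phosphorylated CD3 chains, was higher by less than 2-fold (mean log2 0.60).

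Of 18 compared genes of the γδ transcription and homing list, 3 were past 2-fold higher in all 4 libraries and 5 past 2-fold lower. The higher genes were the transcription regulators SOX4 (mean log2 2.27), ID3 (1.80) and GATA3 (1.71). GATA3 was at 222, 388, 387 and 292 CPM in WC1-family-positive cells and at 68.8, 115, 123 and 85.1 CPM in the others. The lower genes were the co-receptor chains CD8A (-2.06) and CD8B (-2.06), the lymph node homing receptor CCR7 (-1.84), the adhesion molecule CD2 (-1.54) and the co-stimulatory receptor CD27 (-1.19). CD4 was lower in all 4 libraries (mean log2 -1.37) but not past 2-fold in each, as were 21.2% of all genes.

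CD2 differed by row. A CD2 UMI was read in 3.68% of WC1-positive T cells without LPS, 2.36% after 2 h, 4.41% after 4 h and 3.64% after 8 h. Among T cells with no WC1-family UMI it was read in 29.1%, 27.9%, 32.3% and 32.5%. Among WC1-12-positive T cells the shares were 31.6%, 29.5%, 25% and 37.5%, like those of T cells without any row.

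The cells of each row were also compared apart. Against T cells with no row, BLK had a mean log2 ratio of 2.70 in WC1 cells and 2.64 in WC1.3 cells, RHEX 2.89 and 2.81, GATA3 1.97 and 1.82, LCK -2.48 and -2.60, and CD2 -3.25 and -2.20. In cells with WC1-12 BLK was at 0.99, RHEX at 0.93, GATA3 at 0.57, LCK at 0.12 and CD2 at 0.01. Past 2-fold higher in all 4 libraries were 1.05% of the genes compared for WC1, 1.04% for WC1.3 and 0 of 6257 for WC1-12. Past 2-fold lower were 1.27% for WC1 and 0.927% for WC1.3, and for WC1-12 5 genes (0.0799%), among them GNLY, a cytotoxic granule protein, with 1, 5, 7 and 0 UMIs in the 4 libraries.

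Set directly against each other, T cells with WC1 but not WC1.3 and T cells with WC1.3 but not WC1 differed past 2-fold in all 4 libraries in 0 of 2351 genes in either direction. Below that fold, 6.93% of these genes were higher and 6.38% lower in all 4 libraries. These shares were not set against those of groups without a difference, so no smaller difference is read from them. The groups held 117 and 122 cells without LPS, 116 and 141 after 2 h, 64 and 111 after 4 h and 45 and 64 after 8 h, which limits the comparison to genes of higher level.

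**Figure D4:**
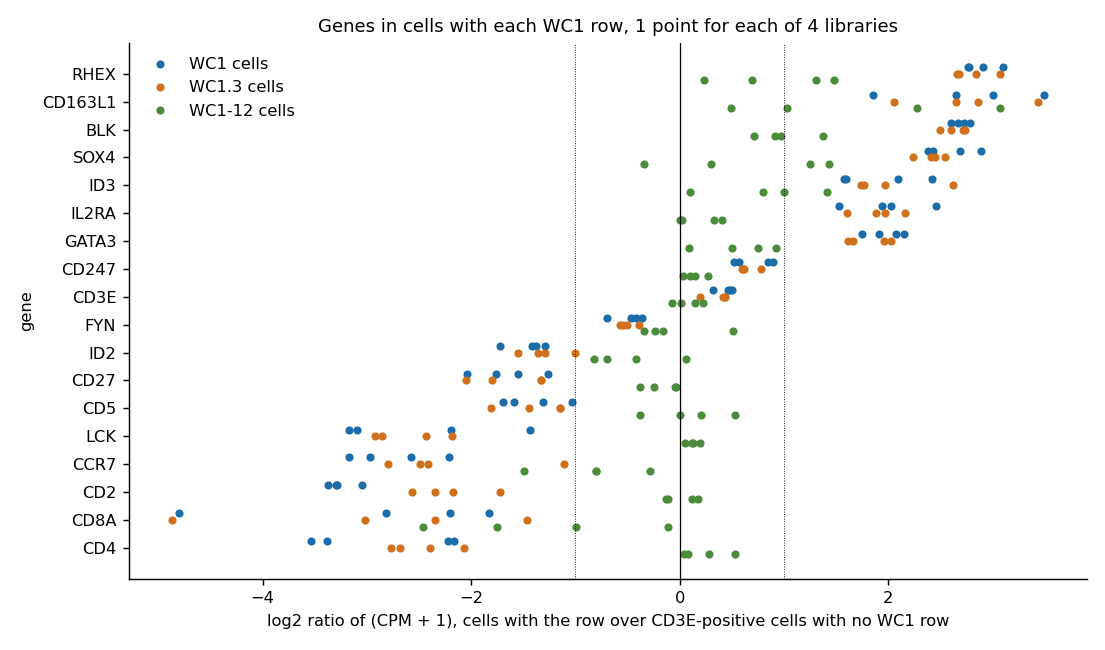
Log2 ratio of (CPM + 1) for named genes (vertical axis) between T cells with WC1, WC1.3 or WC1-12 and T cells with no WC1 row (horizontal axis); each point is 1 library and dotted lines mark 2-fold. BLK, RHEX, SOX4 and GATA3 lie to the right and CD2, LCK and CCR7 to the left for WC1 and WC1.3, while for these genes the WC1-12 points lie nearer 0.

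By the correlation over T cells with the summed WC1 rows, taken within each library and averaged over the 4, the most alike of 8831 genes was RHEX, a regulator of erythroid expansion (r = 0.40). It was followed by ENSBTAG00000000144 (0.39), BLK (0.39), ENSBTAG00000055197 (0.34), RGS1 (0.30), SYTL3 (0.29), GNPTAB (0.28), ZNF462 (0.28), IL2RA (0.27) and SOX4 (0.27). The identifiers have no name in the tables. The least alike were CCR7 (-0.20), ENSBTAG00000000432 (-0.20), ENSBTAG00000000682 (-0.17), NSD3 (-0.16) and LCK (-0.15). The points of each correlation are cells of 1 library and share its depth and composition.

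RHEX, BLK and ENSBTAG00000000144 were also the 3 genes most like WC1 (r of 0.28, 0.27 and 0.29) and most like WC1.3 (0.32, 0.31 and 0.30). For WC1-12 the highest were ZNF283 (0.06), CEACAM1 (0.05) and TOP3A (0.05), which is near 0 for counts this sparse. Over LPS time RHEX was at 136, 99.8, 117 and 105 CPM in T cells, BLK at 109, 85.7, 104 and 85.8, and SOX4 at 48.5, 29.1, 26.4 and 33.1. RGS1, a regulator of G protein signalling, was at 205, 510, 523 and 337 CPM, so genes most like the WC1 rows over cells went both ways over LPS time.

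Of the effector list in all T cells, 5 of 17 rows were past 2-fold higher after 2 h (IL22, IFNG, CD69, IL17A and IL17F), where 0.71% of all genes were. After 4 h 7 were, where 1.07% of all genes were, and after 8 h 0 were, where 0.419% of all genes were. The 2 GZMB rows (granzyme B), 2 entries of 1 gene name, were past 2-fold lower after 8 h, where 0.912% of all genes were. Each was at 1.41 CPM then. NKG7, a cytotoxic granule protein, had log2 ratios of -0.61 after 2 h, -0.57 after 4 h and -0.95 after 8 h. Of the CD3 genes 0 of 4, and of the Src kinase and proximal signalling genes 0 of 19, were past 2-fold in either direction at any time. Over all genes 0.419% to 1.67% were, by time and direction. CD163L1 was the 1 SRCR relative past 2-fold, lower after 4 h, where 1.67% of all genes were. ID3 was past 2-fold lower after 2 h, in the γδ transcription and homing list, where 0.692% of all genes were.

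Of 10 compared genes of the effector list, 1 was past 2-fold higher in WC1-family-positive T cells in all 4 libraries (IL2RA). The same held for 0.882% of all genes. GNLY, CCL5 and IL10 were lower in all 4 libraries, none past 2-fold in each, as were 21.2% of all genes. The median over the list of mean log2 ratios was -0.35. IL2RA, the α chain of the interleukin-2 receptor, was higher in WC1-family-positive T cells at every time. It was at 235, 483, 448 and 379 CPM there and at 70.8, 140, 170 and 89.7 CPM in the other T cells. A UMI was read in 56.2%, 74.6%, 74.0% and 78.2% of the positive cells and in 16.4%, 23.0%, 28.0% and 19.1% of the others. CD69, an early activation marker, had 8.03, 45.7, 38.8 and 50.5 CPM in positive cells and 23.7, 79.0, 64.3 and 38.1 CPM in the others, so it was higher with LPS than without in both.

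Cytokine UMIs in WC1-family-positive cells came from very few cells. After 2 h IL17F had 345 UMIs in 5 of 307 positive cells, of which 305 were in 1 cell. IL22 had 205 UMIs in 4 cells, IL17A 77 in 3 cells and IFNG 41 in 3 cells, with 149, 43 and 33 in the highest cell of each. Among 5132 T cells without a WC1-family UMI after 2 h, IL17F was read in 48, IL22 in 15, IL17A in 11 and IFNG in 35. The share of cells with IL17F was 1.63% against 0.935%, with overlapping intervals, so no difference in this share was detectable at this depth. This holds for IL17F alone, as the shares for IL22, IL17A and IFNG were not compared. In B-gated cells after 2 h IL17F had 5 UMIs.

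The same Ensembl genes were looked up in the scATAC-seq tables, which hold counts per gene and nucleus. WC1.3 was analysed in all 4 libraries, WC1-12 after 2 h and 4 h and WC1 after 4 h, and CD163L1 was not analysed here. The library without LPS was shallow, with a median of 213 counts per nucleus against 5171, 5205 and 2250 after 2 h, 4 h and 8 h, and WC1.3 had 0 of its 975012 counts, which allows up to 3.78 CPM. It is given no ratio.

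WC1.3 had 547 counts in 243 of 4172 nuclei after 2 h (5.82%), 412 in 178 of 3231 after 4 h (5.51%) and 157 in 74 of 3163 after 8 h (2.34%). On the CPM scale these are 18.1, 15.4 and 13.1 CPM. Of the nuclei with a WC1.3 count, 88.9%, 87.6% and 71.6% held an even number of them. Counts thus came mostly in pairs, and the counting intervals, which take each count as separate, are too narrow. The ratio of 8 h to 2 h was 0.726 (0.604 to 0.869), and that of 4 h to 2 h 0.849 (0.745 to 0.967). WC1-12 had 9.82 CPM after 2 h and 8.79 CPM after 4 h, a ratio of 0.896 with an interval that includes 1. WC1 had 50 counts in 32 nuclei after 4 h, 1.86 CPM. Neither row with a ratio was past 2-fold, where 1.46% of all genes were past 2-fold lower from 2 h to 4 h, 5.65% from 4 h to 8 h and 6.69% from 2 h to 8 h. Past 2-fold higher were 0.457%, 0.829% and 1.17% of all genes in the same order.

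CD3 genes were not analysed in these tables, and T nuclei were taken as those with at least 2 counts over LCK, CD5 and CD6 and none over MS4A1, CD79A and CD79B, and B nuclei the other way round, chosen with the data in view. WC1.3 was at 20.1 CPM in T nuclei and 6.73 CPM in B nuclei after 2 h, at 17.7 and 7.97 CPM after 4 h, and at 14.6 and 12.3 CPM after 8 h. The intervals were apart after 2 h and 4 h and overlapped after 8 h. Over all nuclei WC1.3 was at 18.1, 15.4 and 13.1 CPM, with intervals that overlapped those of T nuclei each time. WC1.3 counts were thus low in B nuclei after 2 h and 4 h and not particular to T nuclei. Nuclei in neither gate were not analysed apart. WC1-12 was at 13.3 and 4.41 CPM after 2 h and at 13.7 and 3.34 CPM after 4 h. Over all nuclei it was at 9.82 and 8.79 CPM. WC1 after 4 h was at 2.00 CPM in T nuclei and 2.06 CPM in B nuclei. In the RNA data LCK was low in cells with WC1 or WC1.3. CD5 and CD6 were also lower in WC1-family-positive T cells in all 4 libraries. Without LPS CD5 was at 78.3 against 150 CPM and CD6 at 10.7 against 23.2 CPM. How many nuclei of such cells this T gate missed was not tested.

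WC1.3 counts were read in 14.5% of the nuclei with WC1-12 counts after 2 h and in 5.51% of the others, but the former had a median of 10326 counts against 5016. After 4 h the shares were 14.7% and 5.17%, with medians of 14368 and 4945 counts. On the CPM scale WC1.3 was at 28.5 CPM in nuclei with WC1-12 and 17.2 CPM in the others after 2 h, and at 15.9 and 15.3 CPM after 4 h. Depth moved with the shares, and its part in them was not tested.

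**Figure D5:**
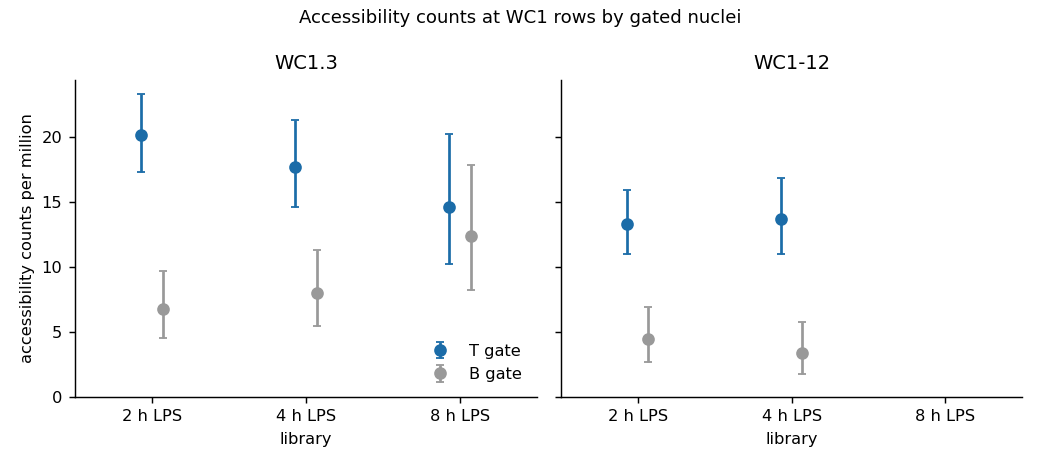
Accessibility (CPM of counts, vertical axis) at WC1.3 (left) and WC1-12 (right) in T-gated and B-gated nuclei with LPS, with 95% counting intervals; WC1-12 was not analysed after 8 h. WC1.3 is at 20.1 against 6.73 CPM after 2 h and 14.6 against 12.3 CPM after 8 h, where the intervals overlap.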

How the data were processed

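Per the paper's methods, 10x libraries were sequenced on the NovaSeq and processed by Cell Ranger against ARS-UCD1.2. Each scRNA-seq table that the authors deposited holds unnormalized UMI counts by gene and cell barcode. The scATAC-seq tables the authors deposited hold unnormalized counts by gene and nucleus, with a counting rule not given in the sources used here. Kept were the 28484 cells with 200 to 3000 genes, 200 or more UMIs and mitochondrial UMIs under 20%, and all nuclei. Groups are the labelled treatments, with 1 library each. UMIs were summed over gated cells, scaled to CPM and compared as log2 of CPM + 1, for genes reaching 20 UMIs in the pair of libraries, or 100 UMIs per library in cell contrasts (200 in all for WC1 against WC1.3 cells). T cells summed to between 9903189 and 25522820 UMIs per library. Thinning to 1000 UMIs left out shallower cells, 77 to 128 T cells per library. No doublet caller was run, and cells with B or CD14 UMIs were left out as an alternative. The monocyte gate needed 2 UMIs and no CD3 UMI.

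The genes named are the WC1 rows, the 10 genes most and 5 least like their sum, the 3 most like each row (at least 200 UMIs) and members of the marker and function lists. Members and lists were chosen with earlier results of these data known. GZMB has 2 rows, which were kept apart, and 1 gene of the lists is not reported here. The ratio step was tested on simulated data. Python 3.11.15, numpy 2.4.6, scipy 1.17.1, pandas 2.3.3, matplotlib 3.10.9 and R 4.3.3 were used. edgeR 4.0.16 and DESeq2 1.42.0 gave scaling factors only, and no p-value was computed. RefSeq served for gene order. No genome of the files' build was used, so no coordinates or sequences are given.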

Additional observations from a re-analysis of the deposited data

How the results depend on the processing

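No paired analysis was possible because each treatment had 1 library per assay and no replicate numbers. Over 9 alternatives, WC1 stayed past 2-fold lower after 4 h (log2 -1.55 to -1.06). WC1 ranged from -0.81 to -0.58 after 2 h and from -0.57 to -0.15 after 8 h, and WC1.3 from -0.65 to -0.40, from -0.81 to -0.46 and from -0.24 to 0.17, the last in all cells kept. WC1-12 was past 2-fold lower after 2 h with a pseudocount of 0.1 CPM (-1.18) and after 4 h in the BLK or SOX13 gate (-1.23). The 3 rows together had log2 ratios of -0.75, -1.04 and -0.31, which in all cells kept were -0.59, -0.81 and -0.031, and -0.88 after 4 h without an upper limit on genes, so that limit and the T cell gate decide whether the sum is past 2-fold after 4 h. The cause of these shifts was not tested.

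The 3 rows summed to 28.9, 16.8, 13.5 and 23.1 CPM (no LPS, 2 h, 4 h and 8 h). Without an upper limit on genes these were 21.8, 13.8, 11.3 and 16.1 CPM. With at least 2 CD3E UMIs they were 32.4 without LPS and 18.7 after 2 h, and as a mean over cells 33.8, 18.7 and 15.2 at the first 3 times. In cells with no B cell or CD14 UMI they were 26.3 without LPS and 20.0 after 8 h. The share of T cells with any row was 2.89%, 1.71%, 1.40% and 2.13% thinned to 1000 UMIs, 5.07%, 3.1%, 2.57% and 3.99% thinned to 2000, 2.90%, 1.34%, 1.26% and 2.80% with at least 2 UMIs, and 7.16% without LPS in cells with no B cell or CD14 UMI.

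The ratio of observed to expected cells with both WC1 and WC1.3 (3.67) was 8.39 with at least 2 UMIs, and, in alternatives chosen after the data were seen, 2.33 in T cells with neither CD4 nor CD8, 0.836 in the BLK or SOX13 gate and 0.794 in CD163L1-positive cells. With at least 5 marker UMIs the B gate after 4 h and the monocyte gate after 2 h had 0 UMIs of the rows. With each count set to 1, WC1.3 accessibility was 24.5, 22.5 and 17.4 CPM after 2 h, 4 h and 8 h. With at least 200 UMIs per gene, genes past 2-fold lower were 46 after 2 h (77 with 20 UMIs), 102 after 4 h (184) and 50 after 8 h (98), and genes past 2-fold higher 21 after 8 h (45). An alternative gate on receptor γ or δ chain rows was not run. Depth limits WC1-12 most, with 24 to 76 positive T cells per library.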
